A study of Mus musculus with 6 samples.

Results

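The insulin receptor signalling core examined here comprised 9 genes taken by name: Insr, Irs1, Irs2, Pik3r1, Pdpk1, Akt1, Akt2, Cbl and Grb10. Each gene was read from a probe set that carries it as the only gene symbol in the platform annotation, and the probe set with the highest mean was used where a gene had more than 1. All 9 genes were found, and all 9 were bright enough to be tested among 16487 genes, out of 19938 genes with such a probe set. The rule for reading each gene used names and mean level, and no difference between groups. The members themselves were chosen with earlier results of these data known.

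The samples were gastrocnemius, a calf muscle, from male mice at 12 weeks of age, with 3 wild type arrays and 3 arrays from mice homozygous for a targeted Sparc mutation. Both genotypes carry the strain label B6;129S-Sparctm1Hwe/J, a mixed background of B6 and 129S stock, and no treatment is labelled. Nothing in the labels ties mice of the 2 genotypes to shared litters, so the main test did not pair them. Its p-values set the difference between groups against the spread within groups, and rest on these 6 samples only. The study asked how metabolic gene expression in muscle differs without SPARC, a secreted collagen-binding glycoprotein, in work on glucose tolerance.

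Sparc itself read 11.73 to 11.87 on the log2 scale in wild type arrays and 5.83 to 6.74 in knockout arrays. The median intensity over all probe sets was 40.5 to 44.7 per array. All 7 muscle fibre markers, among them Ckm and Acta1, were bright enough to be tested. Their summed intensities were 53719 to 54802 in wild type and 48018 to 53204 in knockout arrays. Changes were negative in 5 of the 7, Ckm and Acta1 among them, and positive in Myh1 and Mb. By the limma test described below, 0 of the 7 passed an adjusted p of 0.05. The samples are whole muscle, in which fewer cells of a type and less RNA per cell cannot be told apart.

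As background, insulin binds the receptor tyrosine kinase encoded by Insr, which phosphorylates the docking proteins IRS1 and IRS2. These recruit phosphoinositide 3-kinase (PI3K), whose main regulatory subunit p85 alpha is the product of Pik3r1. The lipid made by PI3K brings the kinases PDK1 (Pdpk1) and Akt to the membrane, and in muscle Akt2 in particular drives glucose transporters to the cell surface. Cbl, a ubiquitin ligase and adaptor, and GRB10, an adaptor that restrains the receptor, bind on the receptor's side of the pathway.

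No member passed the test for a genotype difference, and the transcripts with the lowest p were those of Irs2, Cbl and Irs1. At an adjusted p of 0.05 in limma, a moderated linear model fitted over all genes, 0 of 9 members passed, against 0.995% of all genes tested (0.321% higher and 0.673% lower in knockout muscle). At an unadjusted p of 0.05, 3 members passed, Irs1 and Cbl higher and Irs2 lower in knockout muscle, and the share over all genes was 18.4%. Irs2 stayed under that unadjusted level in 16 of 16 alternative settings, Irs1 in 8 and Cbl in 9. Irs1 and Cbl both missed it after median centring and with any 1 array left out except knockout array 3. The 3 knockout arrays lay wholly above the wild type arrays in Irs1, Cbl and Akt1 and wholly below them in Irs2 and Akt2. That made 3 members higher without overlap, against 11.1% of all genes, and 2 lower, against 13.8%. The median log2 change was 0.093 over the 9 members and 5.3e-05 over all genes, and 7 members had a positive change.

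**Figure D1:**
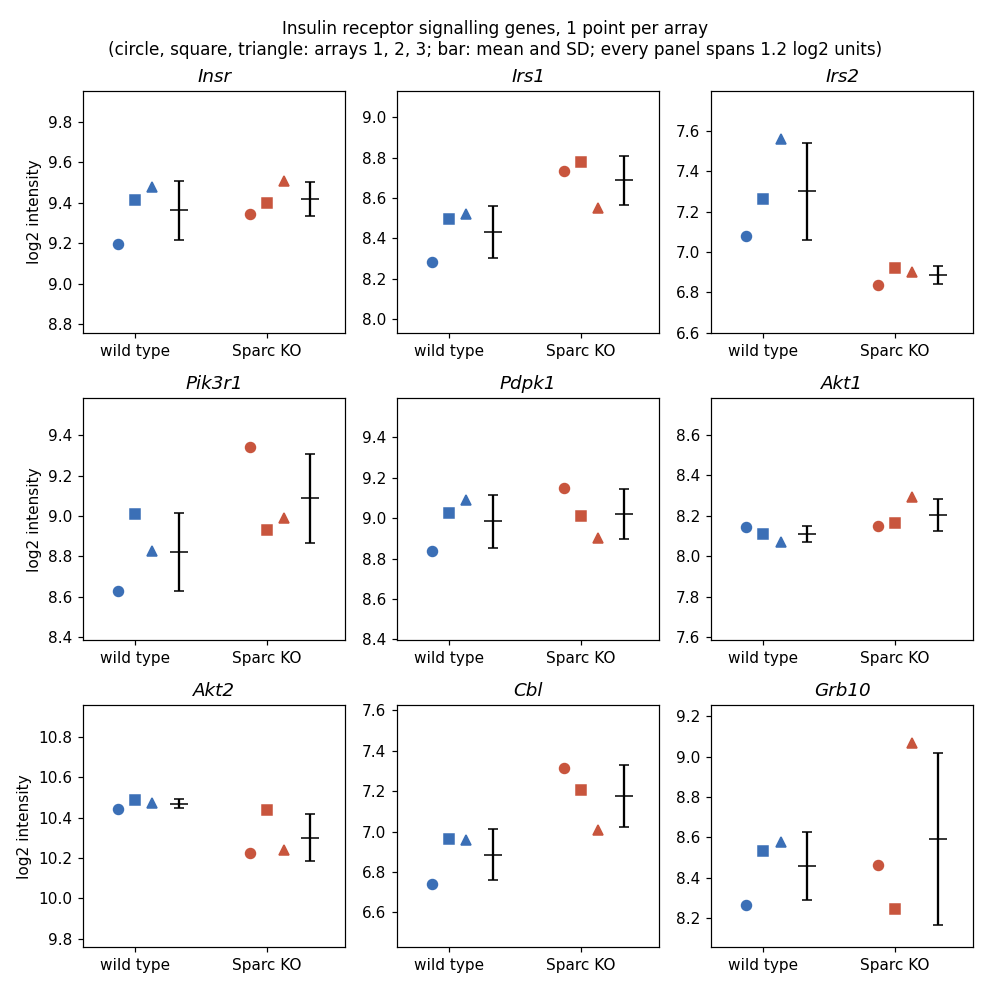
Log2 intensity of the 9 members, 1 point per array, with blue for wild type and red for knockout; circles, squares and triangles are arrays 1, 2 and 3, and bars give the mean and SD of 3 arrays. Irs2 sits below every wild type array in all 3 knockouts, and Grb10 in knockout array 3 stands alone at 9.07.

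Insr, the receptor itself, read 9.20, 9.41 and 9.48 in wild type arrays 1, 2 and 3 and 9.34, 9.40 and 9.51 in knockout arrays 1, 2 and 3. The groups overlapped, with wild type array 1 below every knockout array and knockout array 3 above every wild type array. The log2 change, knockout minus wild type, was 0.056 ± 0.10 (SE), with a 95% interval of -0.18 to 0.29 and an adjusted p of 0.83. A dimmer Insr probe set read 7.80, 8.04 and 8.04 in wild type against 7.58, 7.89 and 7.85 in knockout arrays, a change of -0.19 ± 0.12 (SE) of opposite sign with an adjusted p of 0.44 in a fit over 18066 probe sets. The annotation does not say which part of the gene each of these probe sets reads, so the direction for Insr rests on the probe set used.

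The docking proteins differed in the direction of their values. Irs2 read 7.08, 7.26 and 7.56 in wild type arrays 1, 2 and 3 and 6.84, 6.92 and 6.90 in knockout arrays. Every knockout array was lower than every wild type array, and the knockouts lay close together (SD 0.044, n = 3) while the wild types were spread (SD 0.24, n = 3). The knockout mean was 1.33-fold lower, and the log2 change was -0.41 ± 0.13 (SE) with a 95% interval of -0.70 to -0.12, an unadjusted p of 0.011 and an adjusted p of 0.14. Wild type array 3 held the highest reading, and the change was -0.28 without it and -0.52 without wild type array 1. Over the alternative settings listed in the processing section the adjusted p of Irs2 ranged from 0.12 to 0.41.

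Irs1, the other main docking protein of muscle, read 8.28, 8.49 and 8.52 in wild type arrays and 8.74, 8.78 and 8.55 in knockout arrays 1, 2 and 3. The groups did not overlap, but knockout array 3 cleared wild type array 3 by only a small step. The knockout mean was 1.19-fold higher, and the log2 change was 0.26 ± 0.11 (SE) with a 95% interval of 0.012 to 0.50 and an adjusted p of 0.25. A much dimmer Irs1 probe set, annotated by another transcript record, read 5.55, 5.58 and 5.45 in wild type and 5.74, 5.30 and 5.34 in knockout arrays. Its change was -0.067 ± 0.13 (SE; adjusted p = 0.85), and the mean of both probe sets gave 0.095.

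**Figure D2:**
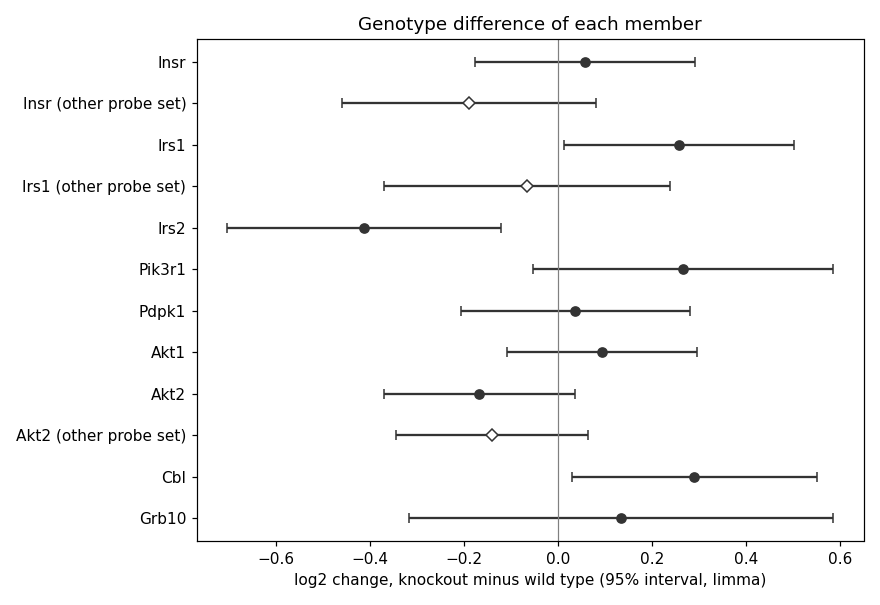
Log2 change of each member, knockout minus wild type, with the 95% interval from limma; filled circles are the probe sets used and open diamonds the other probe sets of Insr, Irs1 and Akt2. The intervals of Irs1, Irs2 and Cbl leave out 0 before adjustment, those of Irs1 and Cbl not under all settings, and both Akt2 probe sets lie to the left of 0.

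Because Irs1 and Irs2 stand at the same step of the pathway, their difference within each array was also compared. Irs2 minus Irs1 was -1.20, -1.23 and -0.96 in wild type arrays 1, 2 and 3 and -1.90, -1.86 and -1.65 in knockout arrays, in units of log2. These values compare change only, since levels of different probe sets do not rank transcripts. The knockout and wild type ranges did not overlap, and the mean differed by -0.67, from -1.13 ± 0.15 to -1.80 ± 0.13 (SD, n = 3 each). An exact two-sided permutation test gave p = 0.10, the smallest value that 3 arrays against 3 allow, and 0.10 after adjustment over the 2 pairs compared. Since Irs2 alone was lower and Irs1 alone higher without overlap, separate ranges and this p were fixed in advance. The test therefore adds nothing to the readings of the single genes. With both Irs1 probe sets averaged the shift was -0.51.

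The start regions of Irs1 and Irs2 are printed because these are the docking-protein genes compared above. RefSeq windows of 300 bases on GRCm38.p6, from 250 bases before the transcript start to 50 after it, were searched for 8 of the 9 members and gave 15 promoters, with none for Insr. The capitals mark CACGTG, the E-box, which reads the same on both strands. The 250 bases before the start are shown, for Irs1 chr1:82291440-82291689 and for Irs2 chr8:11008930-11009179, both on the minus strand and written 5′ to 3′ along the gene.
Irs1: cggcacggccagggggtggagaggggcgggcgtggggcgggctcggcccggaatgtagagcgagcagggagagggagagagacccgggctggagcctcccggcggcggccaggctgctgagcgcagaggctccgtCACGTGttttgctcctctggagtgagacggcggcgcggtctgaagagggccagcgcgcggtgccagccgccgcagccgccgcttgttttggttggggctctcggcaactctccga
Irs2: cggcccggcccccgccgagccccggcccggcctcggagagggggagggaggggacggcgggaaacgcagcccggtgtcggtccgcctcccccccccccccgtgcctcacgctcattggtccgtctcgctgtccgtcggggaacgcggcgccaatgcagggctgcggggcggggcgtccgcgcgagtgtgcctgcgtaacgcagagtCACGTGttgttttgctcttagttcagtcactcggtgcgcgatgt

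The E-box lay 115 bases before the start in Irs1 and 44 bases before it in Irs2. It was found in 2 of the 15 member promoters, those of Irs1 and Irs2, and in 7.15% of all 32851 promoters. Extending the E-box on both sides for as long as the 2 sequences matched gave a run of 10 bases, GTCACGTGTT. Both genes hold this run by construction. It was found on either strand in 25 of all promoters, 0.0761%, theirs included, and that share does not measure how unusual the match is. The forkhead motif TGTTTAC, the core that FoxO factors bind, was found on either strand in 1 member promoter, of Akt1, against 3.65% of all promoters. The cyclic AMP response element TGACGTCA was in 0 of 15, against 1.79%. Such matches describe the letters in these windows only. The readings of the 2 genes differed in direction with the Irs1 probe set used, but not with the dimmer one, and neither gene passed the adjusted threshold.

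**Figure D3:**
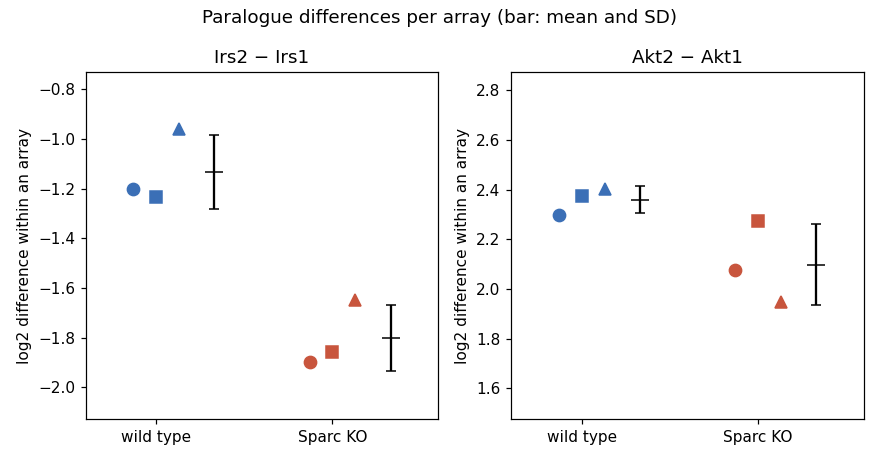
Log2 difference within each array for Irs2 minus Irs1 (left) and Akt2 minus Akt1 (right), 1 point per array with the mean and SD of 3 arrays. In both panels the knockout arrays lie below the wild type arrays without overlap, by more in the Irs pair (-0.67) than in the Akt pair (-0.26). That gap between pairs was not tested, and the lack of overlap follows from the separate ranges of the single genes.

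Pik3r1, the p85 alpha subunit that links the IRS proteins to PI3K, read 8.63, 9.01 and 8.83 in wild type arrays 1, 2 and 3 and 9.34, 8.93 and 8.99 in knockout arrays. Knockout array 1 stood above the others, and knockout arrays 2 and 3 lay inside the wild type range. The log2 change was 0.27 ± 0.14 (SE; adjusted p = 0.36), and it was 0.14 without knockout array 1 and 0.36 without wild type array 2. Knockout array 1 also held the most macrophage signal: the 11 macrophage markers averaged 1.21 above the wild type mean there, against 0.43 and 0.34 in knockout arrays 2 and 3. All 11 had positive changes, with summed intensities of 2370 to 2647 in wild type and 3332 to 6026 in knockout arrays and none at 0, and their part in the Pik3r1 reading was not tested.

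Pdpk1, which encodes the kinase that switches Akt on, read 8.84, 9.03 and 9.09 in wild type and 9.15, 9.01 and 8.90 in knockout arrays 1, 2 and 3. The groups overlapped, with a log2 change of 0.037 ± 0.11 (SE; adjusted p = 0.90) and a 95% interval of -0.21 to 0.28. The sign of so small a value turned under 4 of 16 alternatives.

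Akt1, the more widely expressed isoform, read 8.15, 8.11 and 8.07 in wild type and 8.15, 8.16 and 8.30 in knockout arrays 1, 2 and 3. The groups did not overlap, though wild type array 1 and knockout array 1 read almost alike, at intensities of 283.4 and 283.9. The log2 change was 0.093 ± 0.089 (SE; adjusted p = 0.64).

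Akt2 read 10.44, 10.49 and 10.47 in wild type and 10.23, 10.44 and 10.24 in knockout arrays 1, 2 and 3. Knockout array 2 reached almost to the wild type readings, at 1386 against 1393 for the lowest wild type array on the intensity scale, and the other two were clearly lower. The knockout mean was 1.12-fold lower, and the log2 change was -0.17 ± 0.089 (SE) with a 95% interval of -0.37 to 0.036 and an adjusted p of 0.36. Without knockout array 2 the change was -0.24 with an adjusted p of 0.11.

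The identity of this Akt2 signal has a limit. The array holds 2 probe sets annotated with the same Akt2 transcript records, and the brighter one, used by the rule, is numbered on the platform among genes of chromosome 11, with 6 of 6 neighbouring named probe sets there. Akt2 lies on chromosome 7, while RefSeq lists a pseudogene copy, Akt2-ps, on chromosome 11 just before Egfr, which is also the next named neighbour of that probe set. Which copy its probes read was not tested. The other probe set is numbered among 6 of 6 neighbours on chromosome 7 and read 10.31, 10.38 and 10.28 in wild type against 10.05, 10.25 and 10.24 in knockout arrays, again without overlap. Its change was -0.14 ± 0.090 (SE; adjusted p = 0.45), so both probe sets gave a lower mean in knockout muscle.

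Within arrays, Akt2 minus Akt1 was 2.30, 2.38 and 2.40 in wild type and 2.08, 2.27 and 1.95 in knockout arrays 1, 2 and 3, in units of log2. The ranges did not overlap, and the mean differed by -0.26, from 2.36 ± 0.055 to 2.10 ± 0.16 (SD, n = 3 each; exact two-sided permutation p = 0.10, the smallest possible). Akt2 was lower by either probe set and Akt1 higher, each without overlap, so separate ranges and this p were fixed in advance. With the Akt2 probe set numbered among chromosome 7 genes, the wild type values were 2.16, 2.27 and 2.21, the knockout values 1.90, 2.08 and 1.95, and the shift -0.23. Without knockout array 3, which holds the highest Akt1 reading, the shift was -0.18, and without knockout array 2 it was -0.35.

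Cbl read 6.74, 6.96 and 6.96 in wild type and 7.31, 7.20 and 7.01 in knockout arrays 1, 2 and 3. All knockout arrays were higher than all wild type arrays, knockout array 3 by a small margin. The knockout mean was 1.22-fold higher, and the log2 change was 0.29 ± 0.11 (SE) with a 95% interval of 0.029 to 0.55, an unadjusted p of 0.033 and an adjusted p of 0.23. The change lay between 0.22 and 0.37 with any 1 array left out. The related ligase gene Cblb, from the adaptor list below, read 7.76 to 7.96 in wild type and 8.03 to 8.08 in knockout arrays, again without overlap, with a change of 0.19 ± 0.093 (SE; adjusted p = 0.33).

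Grb10, the imprinted adaptor gene, read 8.26, 8.53 and 8.57 in wild type and 8.46, 8.24 and 9.07 in knockout arrays 1, 2 and 3. Its mean was carried by knockout array 3, while knockout array 2 was the lowest of all 6. The log2 change was 0.13 ± 0.20 (SE; adjusted p = 0.79), turned to -0.10 without knockout array 3 and was 0.31 without knockout array 2. The knockout SD of 0.43 was the widest among the members, against 0.17 in wild type. In knockout array 3 the 10 fibroblast and tendon markers averaged 0.65 above the wild type mean and the 8 endothelial markers -0.38, with 0.88 and 0.23 in knockout array 1, and their part was not tested. Grb10 is the member on the same chromosome as Sparc, 11, with 275 protein-coding genes between them in RefSeq order.

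**Figure D4:**
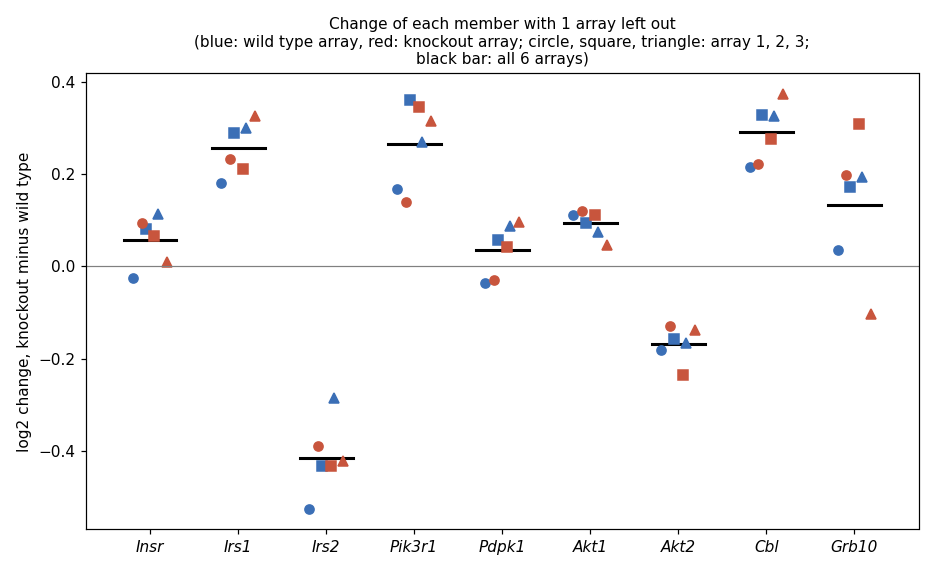
Log2 change of each member with 1 array left out, where colour and symbol give the array that was left out and the black bar is the value with all 6 arrays. Irs2 stays between -0.52 and -0.28, while Grb10 runs from -0.10 to 0.31 and crosses 0 without knockout array 3.

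Wild type array 1 bears on most of these genes. It was the lowest of the 3 wild type arrays in 8 of 9 members, Akt1 being the exception with wild type array 1 highest, and in 44.1% of all genes tested. Leaving it out took the change of Irs1 from 0.26 to 0.18, of Pik3r1 from 0.27 to 0.17, of Cbl from 0.29 to 0.22 and of Grb10 from 0.13 to 0.037, and turned those of Insr and Pdpk1 to -0.026 and -0.037. The same array was low in adipocyte markers, with a mean over 9 markers of -0.61 from the wild type mean against 0.25 and 0.37 in wild type arrays 2 and 3. All 9 adipocyte markers had negative changes in the knockouts, with none at 0, and 0 of the 9 passed the adjusted threshold. Their summed intensities were 9884 to 13018 in wild type and 8025 to 11306 in knockout arrays. In knockout arrays 1, 2 and 3 they averaged -0.46, -0.54 and -0.63, and the part of fat cells in the Irs2 and other readings was not tested.

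The median SD over the 9 members was 0.13 in wild type and 0.12 in knockout arrays, and over all genes it was 0.091 and 0.16. Single members were uneven: Irs2 had the wider spread in wild type, and Akt2 (0.022 against 0.12) and Grb10 in knockout arrays. Knockout array 2 was the knockout nearest to the wild type mean in 4 of 9 members and in 45.8% of all genes.

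For Irs2 and Cbl, the members with the lowest p, the nearest patterns were sought among the genes tested. Predicted genes (Gm, LOC), Riken clones and olfactory or vomeronasal receptors were left out of the search. The genes whose 6 readings, centred on their own mean, lay nearest to those of Irs2 were then Igfals, Rcl1 and Tfcp2l1. Their root mean square differences from Irs2 were 0.064, 0.068 and 0.079 on the log2 scale over 6 arrays. Igfals encodes the acid-labile subunit that carries insulin-like growth factors in blood, and its readings were 5.57, 5.69 and 6.07 in wild type and 5.23, 5.25 and 5.27 in knockout arrays. For Cbl the nearest were Ift46, Nfia and Clmp, at 0.027, 0.028 and 0.035. Ift46 and Clmp lie on chromosome 9 as Cbl does, each with 23 protein-coding genes between it and Cbl, and Nfia lies on chromosome 4. The share of tested genes on chromosome 9 was not counted, nor how many other genes lay about as close to Irs2 or Cbl. A link between position and reading was not tested.

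The rest of the pathway was described through 7 lists with 92 genes, of which 87 were tested. The other 5 were not analysed here. By limma 0 of 87 passed the adjusted threshold, and at an unadjusted p of 0.05, 5 were higher (8.16% of all genes) and 8 lower (10.3%). Their median change was -0.016, with 42 positive and 45 negative. Without knockout array 2, 5 passed, against 6.17% of all genes then: Tsc1, Tsc2, Fbxo32 and Gsk3a lower and Sesn3 higher.

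**Figure D5:**
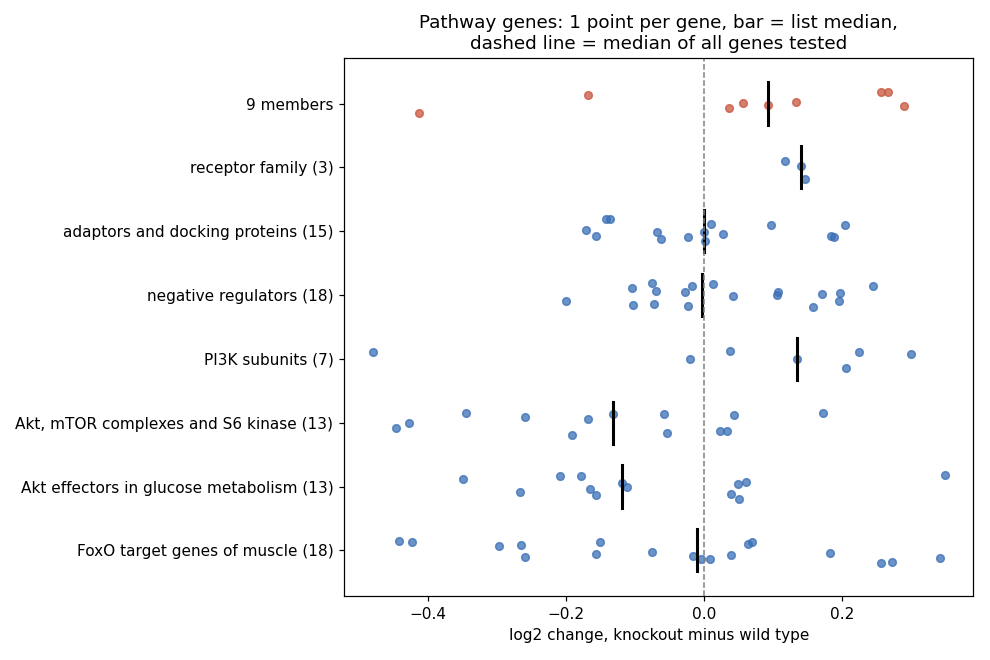
Log2 change of each pathway gene, knockout minus wild type, 1 point per gene with the vertical position spread at random; black bars are list medians and the dashed line the median of all genes tested. The Akt, mTOR and S6 kinase list and the Akt effector list have medians of -0.13 and -0.12, and PI3K subunits 0.14.

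Among receptors, Igf1r, the insulin-like growth factor receptor that shares the IRS proteins, had a log2 change of 0.15 ± 0.11 (SE; adjusted p = 0.52) and Igf2r, a clearance receptor, one of 0.14 ± 0.13 (SE; adjusted p = 0.61). None of the 3 receptors passed at either level. The 15 adaptors and docking proteins had a median change of 5.3e-05, with Cblb as above and Flot1, a membrane scaffold protein, at -0.17 ± 0.093 (SE; adjusted p = 0.37), and 0 were under an unadjusted p of 0.05. The 18 negative regulators had a median of -0.0029. Mapk8, the stress kinase JNK1, read 8.03, 8.07 and 7.94 in wild type and 8.36, 8.33 and 8.10 in knockout arrays, at 0.25 ± 0.10 (SE; adjusted p = 0.25), and Ikbkb was at 0.20 ± 0.11 (SE; adjusted p = 0.36).

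Among 7 other PI3K subunits, Pik3cd and Pik3r3 had the lowest p. Pik3cd, a catalytic subunit best known from leukocytes, read 6.20, 6.56 and 6.52 in wild type and 5.86, 6.10 and 5.88 in knockout arrays. These do not overlap, with a change of -0.48 ± 0.13 (SE; adjusted p = 0.11). All 11 macrophage and all 10 fibroblast and tendon markers had positive changes, and all 9 adipocyte and 2 erythroid markers tested had negative ones. Of the 8 endothelial markers, 3 had positive and 5 negative changes. In each of these lists 0 markers passed the adjusted threshold. The part of any cell type in the Pik3cd reading was not tested. Pik3r3, the regulatory subunit p55 gamma, averaged 6.94 ± 0.058 (SD, n = 3) in wild type and read 7.16, 7.13 and 7.42 in knockout arrays, all above every wild type array, a change of 0.30 ± 0.11 (SE; adjusted p = 0.19). Its direction was that of Pik3r1.

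Below Akt, 9 of the 13 tested genes of Akt, the mTOR complexes and S6 kinase had negative changes. An unadjusted p below 0.05 was reached by 4 of the 13, all lower, against 10.3% lower over all genes. Tsc1 and Tsc2 form the complex that Akt inhibits to release mTOR. Tsc2 read 8.62, 8.60 and 8.61 in wild type and 7.97, 8.36 and 8.16 in knockout arrays, and Tsc1 7.74, 7.75 and 7.70 against 7.17, 7.37 and 7.37. The wild types were nearly level and the knockouts all lower, with changes of -0.45 ± 0.11 and -0.43 ± 0.096 (SE; adjusted p = 0.10 and 0.078). Without knockout array 2 both passed, at -0.55 (adjusted p = 0.024) and -0.46 (adjusted p = 0.045). In that setting 6.17% of all genes passed, and neither gene passed under any other alternative.

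Of 13 Akt effectors in glucose metabolism, 3 had an unadjusted p below 0.05, of which 2 were lower, near the 18.4% of all genes. Tbc1d4, the Rab-GAP (AS160) that Akt phosphorylates to release glucose transporter vesicles, read 6.94, 7.23 and 7.37 in wild type and 6.89, 6.73 and 6.89 in knockout arrays. The ranges were separate by a small step, and the change was -0.35 ± 0.13 (SE; adjusted p = 0.19). Tbc1d1, a related Rab-GAP, went the other way with overlapping groups, at 0.35 ± 0.15 (SE, adjusted p = 0.27). Rac1, a GTPase of insulin-stimulated actin remodelling, was at -0.21 ± 0.088 (SE; adjusted p = 0.26). Gsk3a, the kinase that Akt inhibits to allow glycogen synthesis, passed without knockout array 2, at -0.39 ± 0.087 (SE; adjusted p = 0.046). It passed under that setting only, where 6.17% of all genes did.

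FoxO factors are held out of the nucleus by Akt, and Irs2 and Insr are themselves known FoxO targets. Of 18 other FoxO target genes of muscle, 8 had positive and 10 negative changes, and an unadjusted p below 0.05 was reached by 2 that were higher and 1 that was lower, near the 18.4% of all genes. Trim63, the muscle ubiquitin ligase MuRF1, read 9.87, 10.08 and 10.03 in wild type and 9.24, 9.70 and 9.72 in knockout arrays, a change of -0.44 ± 0.14 (SE; adjusted p = 0.15). Fbxo30, another ubiquitin ligase gene, was at 0.26 ± 0.096 (SE; adjusted p = 0.20). Without knockout array 2, Fbxo32, the ligase atrogin-1, was at -0.70 ± 0.13 (SE; adjusted p = 0.026) and Sesn3, sestrin 3, at 0.48 ± 0.11 (SE; adjusted p = 0.045). Both passed under that setting only, where 6.17% of all genes did. Knockout array 2 read 10.62 for Fbxo32, above all wild types (10.41 to 10.56), where knockout arrays 1 and 3 read lower than all of them.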

How the data were processed

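Biotin-labelled RNA of 6 muscle samples was hybridised to 1 Affymetrix array each. The authors deposited probe-set intensities on a linear scale, and the submitters' processing notes name RMA and Affymetrix Expression Console, version 1.3.0.187. RMA corrects background and normalizes all arrays together, and shrinks differences between dim values. A genome build for the probe sets was not given in the sources used here. Since the design had assumed log2 values, each deposited intensity was converted to log2, without an offset. No detection calls were used, and precision is limited by how few arrays there are.

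Genes were named from 21789 probe sets with 1 symbol, and those with several symbols were left out. Genes with a mean log2 intensity under 3.90, the 25th percentile over probe sets, were not tested. The test was limma 3.58.1 under R 4.3.3 (trend, two-sided, Benjamini-Hochberg over 16487 genes, threshold 0.05). It was run on simulated data with independent noise of equal spread in both groups. That check does not cover effects shared across an array or unequal spread. Alternatives were median centring, a second quantile normalization, an added 16 before log2, other dim filters (none, 50th percentile), averaged probe sets, no or robust trend, array weights, the replicate number as a block and leaving out each array. The members' other probe sets were added after seeing the data, and the promoter motifs were chosen with the sequences in view. The members and lists were chosen with earlier results of these data known. Named pathway genes were those past the threshold in each list (at most 4), or else the 2 with the smallest p. Fbxo32, Gsk3a and Sesn3 are named because they passed without knockout array 2, after their values were seen. Tbc1d1 is named beside Tbc1d4, also after its values were seen. Values after ± are SE of the fit or SD over 3 arrays, as marked.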

Additional observations from a re-analysis of the deposited data

How the results depend on the processing

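No member passed the adjusted threshold under any of the 16 alternatives to the fit, and over these 144 values 7 changed sign, in Insr, Pdpk1 and Grb10. Pdpk1 was at -0.0042 after median centring and -0.017 with array weights, and Insr at -0.066 with averaged probe sets. With 1 array left out Insr ran from -0.026 to 0.11, Pdpk1 from -0.037 to 0.096 and Grb10 from -0.10 to 0.31. The other probe sets of Insr and Irs1, added after seeing the data, gave -0.19 and -0.067. The cause was not tested. The count over all genes, 164, was 103 after median centring, 329 with array weights, and 27 to 1017 with 1 array left out (32, 30 and 27 without wild type arrays 1, 2 and 3, and 1017 without knockout array 2). The pathway genes past the threshold numbered 0 to 5 with 1 array left out. The within-array shifts kept their sign, from -0.75 to -0.58 for Irs2 minus Irs1 and from -0.35 to -0.18 for Akt2 minus Akt1 with 1 array left out. That sign was fixed by the separate ranges of the single genes.

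With the replicate number as a block, 0 members and 123 of all genes passed, and no member's adjusted call changed. At the unadjusted level Irs1 and Cbl no longer passed under the block, and Irs2 did. The labels do not say whether equal numbers pair the mice. Deviations of same-numbered arrays correlated at 0.0088, 0.082 and -0.020, and those of differently numbered arrays at -0.063 to 0.046. These values do not settle whether the arrays are paired. For both within-array shifts the block left the value at -0.67 and -0.26, with an exact p of 0.25, the smallest that 3 pairs allow. The separate ranges fixed that p as well.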
